A study of Mus musculus with 141 samples.

Results

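The Rassf (Ras association domain) family was examined in single-cell CpG methylation data from mouse glioma cells grown with or without an inhibitor of mutant isocitrate dehydrogenase (IDH). All 10 genes, Rassf1 to Rassf10, were taken by name. The CpGs of the methylation table inside them or within 1 kb of either end numbered 717. The family was selected on the start window levels of these same cells, Rassf10 being chosen by its lower level with the inhibitor, so every value of that contrast is a description. The window 1 kb either side of the gene start was the main region. It counted as measured with at least 50 CpG calls from at least 10 cells in each arm, which 6 of the 10 members reached (Rassf2, Rassf3, Rassf5, Rassf7, Rassf8 and Rassf10), against 8891 of 21631 protein-coding genes.

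Both arms consisted of glioma cells carrying the Idh R132H mutation. One arm received 1 µM AG-881 (vorasidenib, an inhibitor of mutant IDH1 and IDH2) and the other its vehicle DMSO, each for more than 2 weeks. Live single cells, sorted by viability dyes into 96-well plates, were profiled by reduced representation bisulfite sequencing, in which the enzyme MspI cuts at CCGG and enriches CpG-dense DNA. The table held 67 AG-881 cells in library pools 1 to 4 and 74 DMSO cells in pools 5 to 8. No pool held both arms and the labels name no separate cultures, so each arm counts as 1 culture and library pool and treatment cannot be told apart. No test was therefore possible: intervals in brackets are exact 95% Clopper-Pearson intervals over pooled calls, or combine both arms' intervals for a difference. They cover counting error only, and are too narrow where 1 cell gives several calls.

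Rassf proteins are scaffolds without enzymatic activity that share a domain able to bind Ras-type GTPases. The classical members, Rassf1 to Rassf6, also carry a C-terminal SARAH domain through which they bind the Mst kinases Stk3 and Stk4 of the Hippo pathway, which restrains growth. Rassf7 to Rassf10 have the Ras association domain near the N-terminus and lack the SARAH domain. In human tumours, gliomas among them, several family promoters, RASSF1A and RASSF10 included, are known for dense CpG methylation that accompanies silencing. Mutant IDH makes the metabolite 2-hydroxyglutarate, which inhibits TET enzymes, the oxidases that begin the removal of DNA methylation. Methylation was the only readout used, so nothing below measures expression.

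Depth, as CpGs called in a cell, had a median of 89440 in the AG-881 arm (23895 to 190259) and of 67749 in the DMSO arm (10438 to 165853). Averaged over single cells, 33.4% ± 3.61 of calls were methylated in AG-881 (SD, 67 cells) and 34.3% ± 2.85 in DMSO (SD, 74 cells). The cell type could not be checked well from methylation: 2 of 6 glial progenitor genes had a measured start window (among them Sox2, at 0.375% with AG-881 and 0% with DMSO), and 0 of 4 marker genes of immune, vascular and connective tissue cells did.

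RefSeq promoter sequences (build GRCm38.p6, the same sequence as mm10), running from 250 bases before to 50 after a listed start site, were found for 6 of the 10 members. Of these promoters, 4 are shown because their calls span the range within the family, from mostly methylated to unmethylated. Capitals mark the CpGs lying whole within the stretch that had a call in at least 1 cell, 5′ to 3′ on the gene's strand. The 2 Rassf1 sequences are separate start sites of 1 gene.
Rassf1 outer start, chr9:107551305-107551604, plus strand: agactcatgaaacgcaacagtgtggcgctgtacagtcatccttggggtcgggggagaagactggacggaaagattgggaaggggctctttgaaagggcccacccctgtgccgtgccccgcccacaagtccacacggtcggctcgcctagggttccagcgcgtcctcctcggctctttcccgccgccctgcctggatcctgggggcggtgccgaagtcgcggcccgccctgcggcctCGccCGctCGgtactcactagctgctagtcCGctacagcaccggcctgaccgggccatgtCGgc
Rassf1 inner start, chr9:107554333-107554632, plus strand: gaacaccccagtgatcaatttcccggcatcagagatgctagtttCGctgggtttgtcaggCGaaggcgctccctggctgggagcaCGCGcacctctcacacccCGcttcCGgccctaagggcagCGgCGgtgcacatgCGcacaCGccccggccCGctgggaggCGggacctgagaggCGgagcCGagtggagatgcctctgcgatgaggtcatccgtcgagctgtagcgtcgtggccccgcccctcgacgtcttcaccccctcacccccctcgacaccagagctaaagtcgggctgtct
Rassf7, chr7:141215610-141215909, plus strand: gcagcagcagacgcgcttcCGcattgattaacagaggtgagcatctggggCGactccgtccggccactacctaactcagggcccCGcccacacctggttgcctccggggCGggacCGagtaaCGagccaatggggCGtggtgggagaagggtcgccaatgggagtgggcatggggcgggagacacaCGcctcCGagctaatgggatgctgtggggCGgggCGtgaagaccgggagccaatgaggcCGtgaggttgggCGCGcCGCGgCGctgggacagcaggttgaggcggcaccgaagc
Rassf2, chr2:132030275-132030574, minus strand: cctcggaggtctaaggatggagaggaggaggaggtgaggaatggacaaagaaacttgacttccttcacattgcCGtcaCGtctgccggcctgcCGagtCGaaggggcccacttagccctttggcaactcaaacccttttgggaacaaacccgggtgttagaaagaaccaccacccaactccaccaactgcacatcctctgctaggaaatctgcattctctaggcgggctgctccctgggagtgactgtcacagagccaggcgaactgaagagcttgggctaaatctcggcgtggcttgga

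These 300-base stretches were dense in CpGs, with 27 at each Rassf1 start and at Rassf7 and 11 at Rassf2, against a median of 7 over 32851 RefSeq promoters of the same length. The MspI motif CCGG (its own reverse complement, so 1 strand covers both) occurred 2 times in the Rassf1 outer promoter, 3 times in the inner one, 3 times in Rassf7 and 2 times in Rassf2, and 52.8% of all promoters held it at least once. In the Rassf1 outer promoter, 6 of 8 calls were methylated with AG-881 and 12 of 14 with DMSO. These counts include a CpG whose C is the last base shown, in lower case (2 of 2 and 7 of 7 calls). Among the capitals, only the last had DMSO calls, 5 of 7 methylated. The inner Rassf1 promoter had 0 of 36 and 0 of 66 methylated calls, and Rassf7 had 0 of 125 and 0 of 194. Rassf2 had 4 of 30 and 2 of 15. The promoters of Rassf4 (15 CpGs) and Rassf6 (13 CpGs) held no CCGG and had 0 CpGs with a call, and the listed Rassf5 promoter is given with that gene.

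Across the 6 measured members, start window levels in DMSO ran from 63.5% at Rassf10 through 22.8% at Rassf5 and 9.42% at Rassf2 to 2.05% at Rassf7, 1.62% at Rassf8 and 1.02% at Rassf3. The order was the same with AG-881. In DMSO, the lowest Rassf10 pool (47.1%) was above the highest Rassf5 pool (31.1%). With AG-881, the lowest Rassf10 pool (35.7%) was above the highest Rassf5 pool (29.1%) but below a Rassf2 pool of 8 calls (37.5%). Rassf5 and Rassf2 overlapped in pool ranges (13.2% to 31.1% and 5.71% to 14.6% in DMSO), and Rassf7, Rassf8 and Rassf3 did not differ beyond the spread of their pools (0% to 3.01% in DMSO). With 2 of 6 members at 20% or more in DMSO, the family can be set beside 13.1% of all 8891 start windows at that level, and 2.49% of them were as high as Rassf10.

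**Figure D1:**
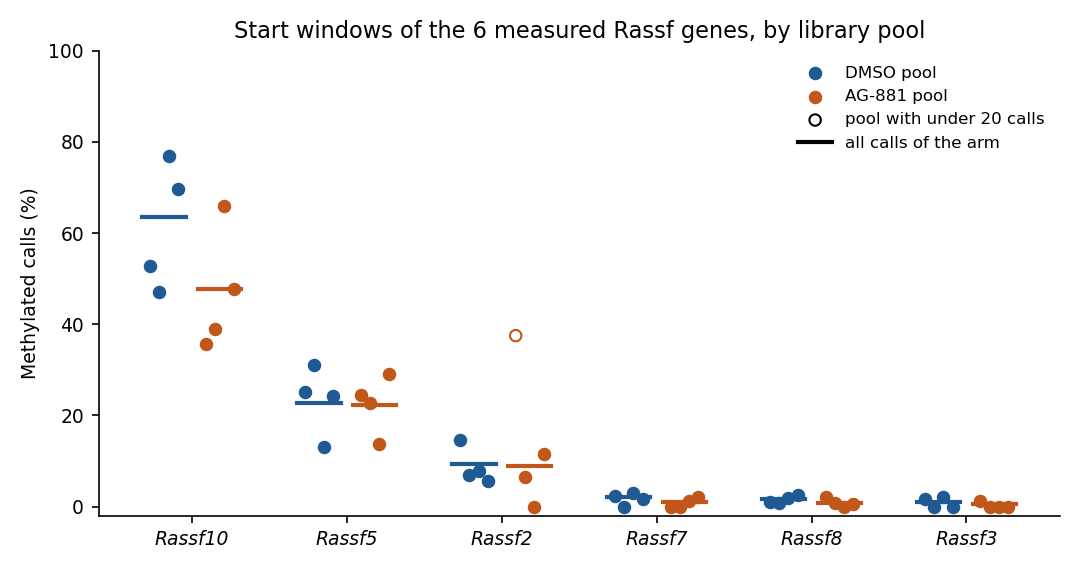
Methylated CpG calls (%) in the start window of each measured Rassf member, 1 point per library pool (pools 1 to 4 AG-881, pools 5 to 8 DMSO), with a bar at the level of all calls of the arm. Rassf10 lies highest in both arms (47.7% and 63.5%) with overlapping pools, and Rassf3, Rassf7 and Rassf8 stay at or below 3.01% in every pool.

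All 6 measured members had a lower level with AG-881, but 5 of them by 0.568 to 1.12 points, with intervals that include 0. The median difference was -0.75 points. Over all 8891 start windows the median was -0.01 points, with 4492 lower and 2734 higher. By the size used for a call, at least 10 percentage points, 1 of 6 members was lower (16.7%) and 0 were higher, while 3.33% of all windows were lower and 0.889% were higher by that much. Because Rassf10 was picked for that difference, nothing is read from the share. None of the 5 members with at least 20 calls in every pool had all AG-881 pools below all DMSO pools, which 1.36% of 5239 windows did; 0.153% had all above.

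**Figure D2:**
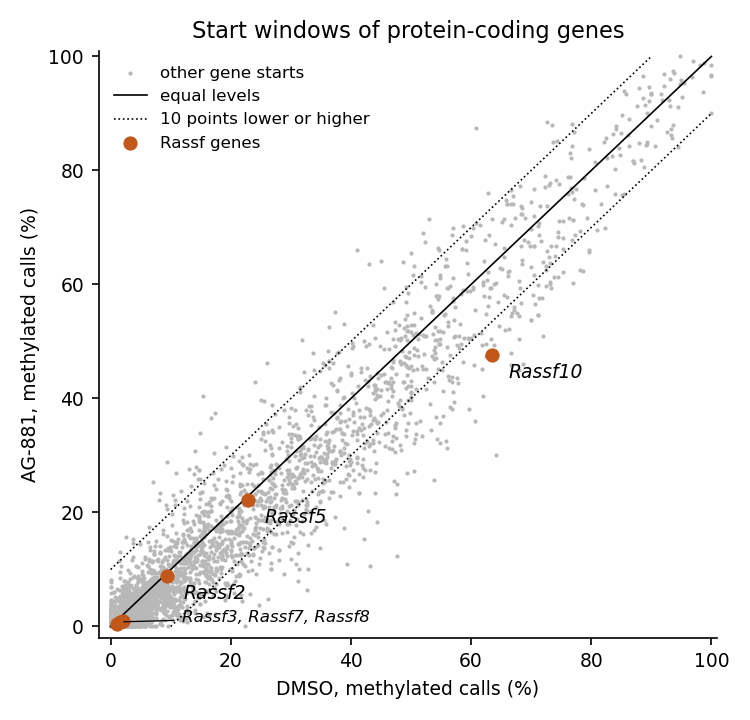
Start window level (%) with AG-881 against DMSO for the 8891 measured protein-coding genes (grey) and the 6 measured Rassf members (coloured, labelled), with lines at no difference and at 10 points either way. Rassf10 (63.5% in DMSO, 47.7% with AG-881) is the 1 member past the 10-point line.

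Rassf10, an N-terminal member associated with mitosis and with promoter methylation in human gliomas, lies at chr7:112953962-112957458. No other annotated gene overlaps its window (chr7:112952962-112954962). The RefSeq tables used here give it no strand, so the end with more CpGs was taken as the start. In the pools of AG-881 cells, 35.7%, 38.9%, 66% and 47.8% of calls were methylated (pools 1 to 4, with 42, 54, 53 and 67 calls). In the DMSO pools the values were 52.8%, 47.1%, 76.9% and 69.6% (pools 5 to 8, with 36, 51, 65 and 56 calls). Pools 1 and 2 were the lowest of the 8 and pools 7 and 8 the highest, but the arms overlapped: AG-881 pool 3 exceeded DMSO pools 5 and 6, and AG-881 pool 4 exceeded DMSO pool 6.

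Over all pools, the Rassf10 level was 47.7% [40.9 to 54.6] with AG-881 (103 of 216 calls, 30 cells) and 63.5% [56.5 to 70] with DMSO (132 of 208 calls, 31 cells), a difference of -15.8 points [-25.2 to -6]. Among all start windows, 0.889% were lower by as much. Among the 1162 windows at 20% or more in DMSO, the median difference was -4.35 points and 23.1% were lower by at least 10. Those windows were picked by their DMSO level, which alone favours lower values with AG-881, so no drop is read from them. Without DMSO pool 7 the Rassf10 difference was -9.66 points, under the size used for a call, and without AG-881 pool 3 it was -21.7 points. AG-881 pool 3 also had the highest mean level per cell over all CpGs (36.8%, against 31.2% to 33.1% in the other AG-881 pools and 33.1% to 35.4% in the DMSO pools); the part of this in the Rassf10 value was not tested. With neighbouring CpGs of a cell joined into 1 majority call, the levels were 48.4% (15 of 31 calls) and 67.9% (19 of 28), and the interval of their difference, -19.5 points, ran from -43.9 to 7.96.

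Within the Rassf10 window, the 25 CpGs behind the level lie between 14 bases before and 426 bases after the gene end, so the difference describes that stretch. Of these 25, each with calls from 5 or more cells in both arms, 19 were lower with AG-881, 5 were higher and 1 was equal, each CpG resting on 6 to 10 AG-881 and 5 to 12 DMSO cells. The 25 CpGs are not independent, since a cell with calls gave a median of 6 in the window. In 200-base steps, at all CpGs with a call in both arms, the level was lowest before the gene end. In DMSO it was 28.6% in the 200 bases before the end and 67.1%, 67.7%, 66.7%, 90.7% and 93.3% in the steps after it. With AG-881 it was 18.8% and then 43.4%, 58.8%, 66.7%, 55.7% and 96.4%. AG-881 was lower in 4 of the 6 steps, equal between 400 and 599 bases (10 of 15 and 16 of 24 calls) and higher between 800 and 999 bases (27 of 28 and 14 of 15). The gap in the first 200 bases of the gene was -23.7 points [-38.7 to -7.42], from 20 cells of each arm. The gap between 600 and 799 bases was -35.0 points [-49.8 to -16.9], from 11 AG-881 and 8 DMSO cells. The arms did not weigh the same CpGs in that step. At 652 bases, 7 AG-881 and 2 DMSO cells had a call. At 763 bases, where all calls were methylated, 4 AG-881 and 8 DMSO cells did. The part of this in the gap was not tested. Beyond the window, inside the gene and over all CpGs, 39 of 44 calls (88.6%, 13 cells) were methylated with AG-881 and 14 of 20 (70%, 6 cells) with DMSO, the opposite order on few cells.

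**Figure D3:**
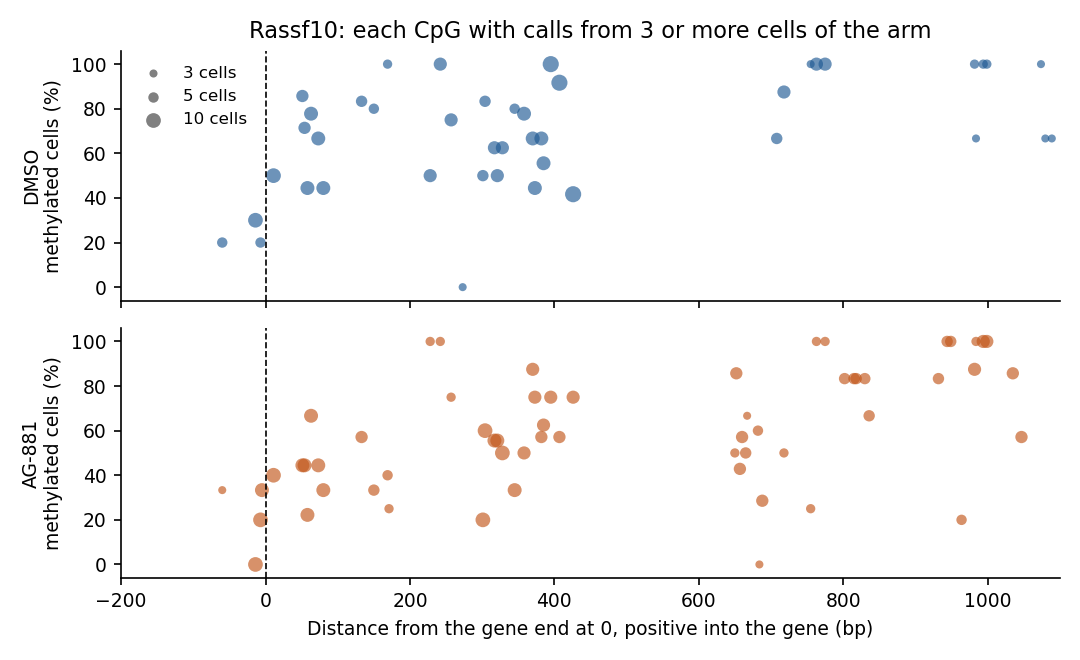
Share of methylated cells (%) at each CpG near the Rassf10 end used as start, against distance in bases (positive into the gene), DMSO above and AG-881 below, for CpGs with calls from at least 3 cells of the arm; point size shows the number of cells. Levels near 0 bases are lower than further into the gene in both arms, and in the first 200 bases AG-881 calls (43.4%) are below DMSO calls (67.1%) at CpGs with a call in both arms.

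Single cells ranged from unmethylated to fully methylated at Rassf10 in both arms. Among cells with at least 5 calls in the window, the 24 AG-881 cells had a lowest value of 0%, a median of 54.5% and a highest of 100%, and the 23 DMSO cells 0%, 62.5% and 100%. Their means were 49.5% ± 34.1 and 64% ± 27.4 (SD over cells of 1 culture). Cells at 20% or less numbered 6 of 24 with AG-881 (25% [9.77 to 46.7]) and 1 of 23 with DMSO (4.35% [0.110 to 21.9]). Cells at 80% or more numbered 5 of 24 (20.8% [7.13 to 42.2]) and 8 of 23 (34.8% [16.4 to 57.3]). These intervals cover the counting of cells within 1 culture per arm, and the difference in shares between the arms was not tested. Pool medians over cells were 36.7%, 41.7%, 68.5% and 54.5% in pools 1 to 4 and 41.7%, 50%, 87.5% and 85.4% in pools 5 to 8, so DMSO pools 5 and 6 lay within the AG-881 range.

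**Figure D4:**
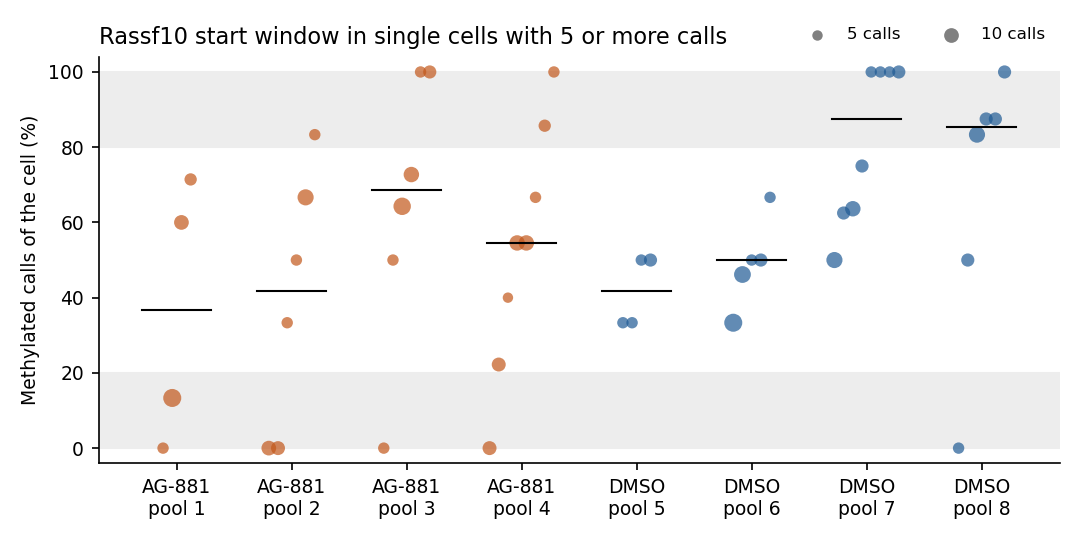
Methylated calls (%) of single cells with at least 5 calls in the Rassf10 start window, by library pool (pools 1 to 4 AG-881, 24 cells; pools 5 to 8 DMSO, 23 cells), with a bar at each pool's median. Cells spread from 0% to 100% in both arms, and the medians of DMSO pools 7 and 8 (87.5% and 85.4%) are the highest.

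The other N-terminal members had nearly unmethylated starts. Rassf7 (chr7:141215425-141218658), linked to spindle and microtubule regulation, had 3 of 323 methylated calls with AG-881 (0.929%, 45 cells) and 8 of 391 with DMSO (2.05%, 47 cells), a difference of -1.12 points [-3.20 to 0.991]. Its window also covers part of Lmntd2, and the table held no CpG in the rest of the gene. Rassf8 (chr6:145746561-145821079), known for roles at cell junctions, had 4 of 537 (0.745%) and 8 of 493 (1.62%), a difference of -0.88 points [-2.52 to 0.596]. The pools of both genes lay between 0% and 3.01%, with the arms overlapping. Inside Rassf8, away from its ends, levels over all CpGs of the table were 89.3% (75 of 84 calls) and 91.5% (75 of 82), and at the 3 CpGs with calls from 5 or more cells in both arms 100% (24 of 24) and 96.3% (26 of 27). The same gene was thus nearly unmethylated at its start and largely methylated within in both arms. Rassf9, known to bind a peptide-processing enzyme of secretory vesicles, had 1 CpG in the table, called in 1 AG-881 cell, and is not described further.

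Rassf5 (also called Nore1 or Rapl, an effector of Ras and Rap1 that binds Mst kinases; chr1:131176410-131245178) was the other member above 20%, with no difference between arms that could be detected. Its AG-881 pools stood at 24.5%, 22.7%, 13.6% and 29.1% and its DMSO pools at 25.2%, 31.1%, 13.2% and 24.2%. The arms overlapped throughout, with 1 low pool in each (pool 3 and pool 7). Over all pools the level was 22.2% [17.6 to 27.4] with AG-881 (65 of 293 calls, 41 cells) and 22.8% [18.1 to 28] with DMSO (67 of 294 calls, 36 cells), a difference of -0.61 points [-7.58 to 6.38]. This counting interval treats calls as independent, though a cell with calls gave a median of 7 in the window. It is therefore too narrow to exclude a gap of any given size. The overlapping RNA gene Gm28913 shares the window.

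The level at Rassf5 varied with position more than between the arms. In 200-base steps over all CpGs, 73.3% of calls were methylated with AG-881 and 66.7% with DMSO at the outer edge of the window (positions -1000 to -801 from the start), and 15.6% and 18.7% at positions -400 to -201. In the 200 bases before the start, 2.63% of calls were methylated with AG-881 and 7.91% with DMSO, and in the first 200 bases of the gene 13.3% and 8.97%. Between 200 and 399 bases the levels were 59.5% and 45.6%, and between 400 and 599 bases 72.9% and 70.6%. Levels were thus low around the start and higher on both sides, though the outer edge rests on 15 AG-881 and 6 DMSO calls. Most cells were low over the window: of those with at least 5 calls, 16 of 27 AG-881 cells and 21 of 30 DMSO cells were at 20% or less, and 2 and 1 were at 80% or more. Inside the gene the levels over all CpGs were 62.2% (97 of 156 calls) and 70.1% (75 of 107), a difference of -7.91 points [-19.6 to 4.36].

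Rassf5 also has a listed start site far inside the gene, at position 131200185, and the RefSeq promoter held for Rassf5 is the one of that site (chr1:131200136-131200435, 5 CpGs and 1 CCGG, with 0 CpGs called). In the window around it, 16 of 19 calls were methylated with AG-881 (84.2% [60.4 to 96.6], 8 cells) and 8 of 10 with DMSO (80% [44.4 to 97.5], 4 cells). The window around the inner start of Rassf5 was thus mostly methylated in both arms, on few cells, and the window of its outer start was not. None of the calls of the inner window lay in the listed promoter, so methylation at the inner start itself was not measured.

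Rassf1 (chr9:107551434-107562267), the best known tumour suppressor of the family, has 2 listed start sites. Calls were mostly methylated just inside the outer end and nearly all unmethylated around the inner start. As background, the outer start belongs to the long isoform Rassf1A, a microtubule-binding protein, and the inner one to the short isoform Rassf1C; the tables used here do not name isoforms. In the kilobase inside the outer end, 14 of 16 calls were methylated with AG-881 (87.5% [61.7 to 98.4], 4 cells) and 35 of 39 with DMSO (89.7% [75.8 to 97.1], 7 cells). The 11 cells with calls there each had 66.7% to 100% of them methylated. The listed outer start lies at 107551555, and its promoter had calls at 5 of 27 CpGs. No CpG between -141 and 108 bases from the outer end had a call, and DMSO calls inside the gene began at 167 bases. Most of the outer promoter was therefore not measured. In the window around the inner start, 2 of 218 calls were methylated with AG-881 (0.917%, 36 cells) and 0 of 194 with DMSO (43 cells), an interval of 0% to 1.88%; the rule of 3 calls of the total gives a limit of 1.55%. Of the 8 cells with calls in both regions, 8 were above 50% in the outer kilobase and below 50% in the inner window.

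The Rassf1 outer window missed the depth needed to be measured, with 1 CpG with calls from 5 or more cells in both arms (10 of 10 calls with AG-881, 6 of 7 with DMSO). That CpG lies outside Rassf1, on the side of the neighbouring gene Zmynd10, which the window overlaps. On the Zmynd10 side of the end, 14 of 14 calls were methylated with AG-881 and 13 of 15 with DMSO. A difference between the arms at the outer start was not detectable at this depth (-2.24 points [-29.1 to 15.5]). Over all CpGs of Rassf1 and 1 kb either side, levels were 16.3% with AG-881 and 25.99% with DMSO (-9.69 points [-16.7 to -2.64]). Every AG-881 pool (13.6% to 19.4%) lay below every DMSO pool (23.2% to 35.5%). At CpGs with calls from 5 or more cells in both arms the order was reversed (6.32% and 3.47%, 2.85 points [-2.16 to 8.04]). The outer window gave 30 of 276 AG-881 and 54 of 277 DMSO calls. The weight of this in the -9.69 points was not tested.

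**Figure D5:**
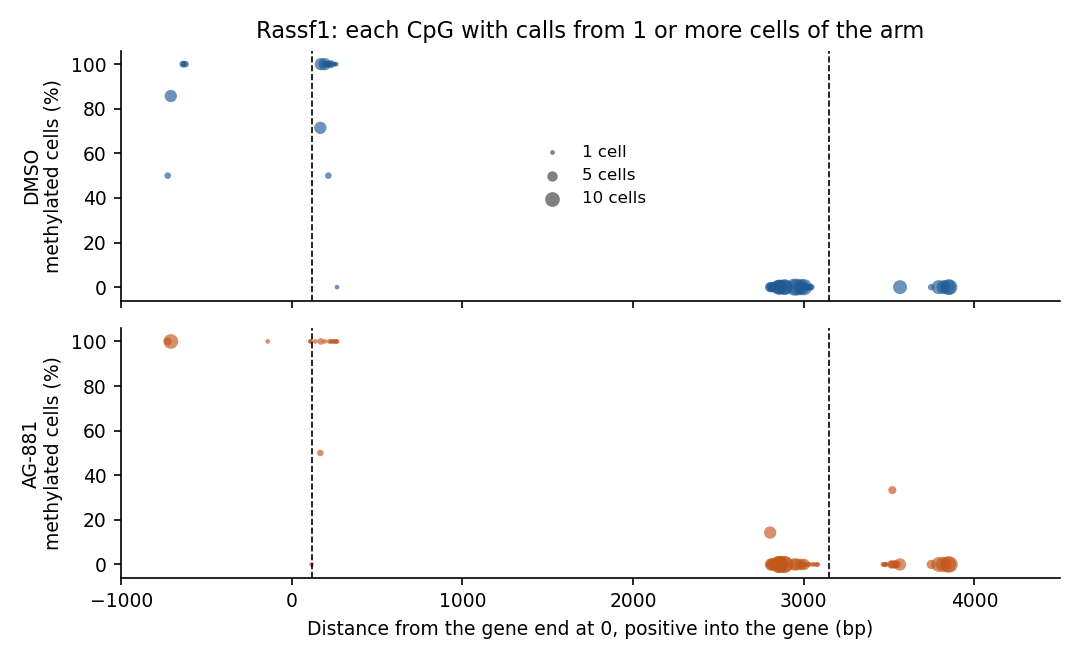
Share of methylated cells (%) at each CpG with a call around the 2 Rassf1 start sites, DMSO above and AG-881 below. Distance is in bases from the outer gene end (positive into the gene). Dashed lines mark the 2 listed start sites and point size shows the number of cells. CpGs further into the gene, from 6448 bases on, are not shown. CpGs near the outer start are mostly methylated (87.5% with AG-881 and 89.7% with DMSO of calls inside the gene). Those around the inner start lie at 0% in DMSO. With AG-881 they do too, except at 2803 bases (1 of 7 cells) and 3519 bases (1 of 3 cells).

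Rassf2 (chr2:131992850-132030416), a classical member that binds and stabilises Mst kinases, was lightly methylated at its start. The level was 8.80% [4.48 to 15.2] with AG-881 (11 of 125 calls, 30 cells) and 9.42% [5.11 to 15.6] with DMSO (13 of 138 calls, 33 cells), a difference of -0.62 points [-8.14 to 7.09]. AG-881 pools stood at 37.5% (of 8 calls), 6.38%, 0% and 11.6%, and DMSO pools at 14.6%, 6.90%, 7.69% and 5.71%, so the arms overlapped. Inside the gene, the levels over all CpGs were 55.2% (58 of 105 calls, 25 cells) with AG-881 and 41.1% (53 of 129 calls, 30 cells) with DMSO, a difference of 14.2 points [0.686 to 27.1]. This rested in part on different CpGs: at the 9 CpGs with calls from 5 or more cells in both arms the levels were 37.1% and 30.7%, a difference of 6.41 points [-9.64 to 22.6]. The pools overlapped as well, at 75.0%, 33.3%, 39.4% and 74.4% with AG-881 and 45.3%, 55.6%, 47.6% and 30.4% with DMSO.

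Rassf3 (chr10:121410350-121476250), a classical member linked to p53 regulation, had an unmethylated start: 1 of 221 calls with AG-881 (0.452%) and 2 of 196 with DMSO (1.02%), a difference of -0.57 points [-3.22 to 1.66]. Inside the gene, over all CpGs of the table, 88.2% (180 of 204 calls) and 87.4% (139 of 159) were methylated. At the 2 interior CpGs with calls from 5 or more cells in both arms the levels were lower, 61.1% (11 of 18) and 54.5% (6 of 11). Rassf4 (chr6:116633008-116673836), a less studied classical member, had too few calls at its start, 6 of 8 methylated with AG-881 and 7 of 8 with DMSO. Inside it, where the genes Depp1 and Mir7043 overlap, the levels over all CpGs were 61.7% (58 of 94) and 57.7% (64 of 111), a difference of 4.04 points [-10.1 to 17.9].

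Rassf6 (chr5:90603076-90640734), a classical member linked to apoptosis, had 0 CpGs in the table around its start. Inside it, over all CpGs, 37 of 40 calls were methylated with AG-881 (92.5% [79.6 to 98.4], 19 cells) and 33 of 44 with DMSO (75.0% [59.7 to 86.8], 19 cells), a difference of 17.5 points [0.022 to 33.9]. The pools stood at 100%, 87.5%, 71.4% and 100% with AG-881 and at 78.6%, 66.7%, 66.7% and 100% with DMSO, each from 6 to 15 calls. They overlapped, and at the 2 CpGs with calls from 5 or more cells in both arms the levels were 100% (20 of 20) and 92.9% (13 of 14). The sign of the interior difference depended on the CpGs used at Rassf1 and Rassf8. At Rassf1 the levels were 7.26% and 10.9% over all CpGs but 0.610% (1 of 164 calls) and 0% (0 of 166) at the CpGs with calls from 5 or more cells in both arms. Those 17 Rassf1 CpGs all lie in the window around the inner start, which also held most of the calls over all CpGs. The Rassf1 interior is therefore largely that start window again. The Rassf8 values above turn in the same way.

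The partners through which Rassf proteins act were read from a list of 28 genes: the Mst and Lats kinases of the Hippo pathway with their cofactors, the coactivators Yap1 and Wwtr1, Tead transcription factors and targets, Ras and Rap GTPases, and direct binding proteins such as Moap1 and Cdc20. Of these, 24 had a measured start window, and 20 of the 24 were under 5% in both arms. The share of all windows under 5% was not computed. The median DMSO level was 0.598% in the list and 0.833% over all 8891 windows, so low levels are not read as particular to the list. With AG-881, 14 of the 24 were lower, 6 higher and 4 equal. Past 10 points in either direction there were 0, beside 3.33% lower and 0.889% higher among all windows. The list's median difference was -0.19 points. Its largest decrease was at Tead1, a transcription factor bound by Yap1, with 14.3% (48 of 336 calls) with AG-881 and 23.1% (43 of 186) with DMSO, a difference of -8.83 points [-16.4 to -1.62]. Its pools overlapped, at 17.7%, 17.9%, 7.79% and 14.3% with AG-881 and 9.09%, 24.4%, 37.2% and 25.5% with DMSO, where pool 5 lay below 3 of the 4 AG-881 pools. The largest increase was at Tead2, a second member of that group, with 1 of 76 calls (1.32%) and 0 of 77, a difference of 1.32 points [-3.53 to 7.11].

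Pool profiles like that of Rassf10 were sought among the other 5238 start windows with at least 20 calls in every pool, by the root mean square difference of the 8 pool levels. The 5 nearest included H2-Q10 (a class I histocompatibility gene, 10.5 points), Dlgap2 (a postsynaptic scaffold, 11.3), Arhgap29 (a GTPase-activating protein, 11.5) and Cdh3 (P-cadherin, 12.5). H2-Q10 was lower with AG-881 by 14.0 points (42.9% and 56.8%), but it belongs to a multigene family of near-identical copies, so its calls are uncertain. Dlgap2 stood at 50.4% with AG-881 and 54.8% with DMSO, Arhgap29 at 55.5% and 53.4%, and Cdh3 at 51.9% and 49.5%, so Arhgap29 and Cdh3 were higher with AG-881 by point value.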

How the data were processed

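The deposited table gives a methylated fraction (0, 0.5 or 1) per cytosine position and cell, made by the authors on mm10 (per the submitters' processing notes). Which aligner and caller they used is not given in the sources used here. It holds 1416034 positions and 141 cells and no read numbers. The depth in reads is therefore unknown, and CpGs called stand for it. Columns were assigned to arms by name. Adjacent positions were merged as both strands of 1 CpG, and ties (0.649% of calls) were left out. Start windows used CpGs with calls from 5 or more cells in both arms; values stated as over all CpGs, those of gene interiors and of both start sites of Rassf1 and of the inner one of Rassf5 use every CpG of the table, unless a smaller set is named. The 200-base steps of Rassf10 at CpGs called in both arms were added after seeing the data. Against RefSeq promoter sequences, 98.4% of positions in those windows lay in a CpG. Gene starts came from the strand in the RefSeq promoter table (GRCm38.p6), otherwise from the end with more CpGs (Rassf3, Rassf8, Rassf10). Python 3.11.15 with numpy 2.4.6, scipy 1.17.1 and pandas 2.3.3 was used; the scripts were tested on simulated data.

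The members and lists were chosen with earlier results of these data known. All members are named; those at 20% or more in an arm, or differing by 10 points, are given for every pool. Of the partner list the largest decrease and increase are named, and of the 5 windows nearest to Rassf10 all but 1, which is not reported here. Pool values of Rassf2 and Rassf6, and the values of Rassf1 with 1 kb either side, were added after seeing the data. Alternatives changed the cell minimum, window size, weighting, ties and pools. The transcriptomes were not analysed here.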

Additional observations from a re-analysis of the deposited data

Results flagged for a closer look

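At the Rassf3 start window, AG-881 pool 1 stood apart from the other AG-881 pools, with 1.32% of calls methylated (1 of 76) against 0% in the other 3. It was the 1 of 11 groups of 4 pools in which the highest or lowest pool lay far from the rest by Dixon's criterion; chance gives about 1 in 20 groups. The value rests on 1 methylated call.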

How the results depend on the processing

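The Rassf10 difference was negative in 19 of 19 alternatives that gave a value, from -21.7 to -9.66 points. Both ends were reached by leaving out 1 pool (AG-881 pool 3 and DMSO pool 7). Over all CpGs, which was not among these alternatives, the Rassf10 difference was -12.7 points in the start window. Over all CpGs of the gene and 1 kb either side it was -9.56 points [-16.3 to -2.68], under the size used for a call. At 500 bp and at 2 kb either side, Rassf10 kept the same 216 and 208 calls, so changing the window size could not change its value. Rassf3, Rassf7 and Rassf8 likewise kept their calls at 2 kb. With calls from 10 or more cells in both arms required per CpG, Rassf10 had too few calls and gave no value. The number of members lower by at least 10 points was 0 in that setting, with 3 members measured, and ran from 0 (without DMSO pool 7) to 1 when each pool was left out; in the other alternatives it was 1. The median over members stayed below 0, from -2.42 to -0.26 points. The start differences of Rassf2 (-3.36 to 5.62 points) and Rassf5 (-3.96 to 4.42 points) took both signs, Rassf3 was above 0 in 1 of 19, and Rassf7 and Rassf8 were below 0 in 19 of 19. The partner list's median ran from -0.40 to 0. With at least 10 calls per cell, the shares of AG-881 cells at 80% or more and of DMSO cells at 20% or less at Rassf10 were 0. The majority call per run of CpGs was added after seeing the data. Depth limits Rassf1, Rassf4, Rassf6 and Rassf9 most. No paired analysis was possible because the column names carry no well or replicate number.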
